A study of Mus musculus with 192 samples.

Results

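Of the 50000 deposited windows of accessible chromatin, 587 lay at the start of a long non-coding RNA (lncRNA) and at no start of a protein-coding gene. A window belonged here when its midpoint, read as the summit of the peak call, was within 1 kb of a transcript start of a lncRNA gene and more than 1 kb from every transcript start of a protein-coding gene, both in the GENCODE vM1 annotation of the mouse genome (build mm9). The rule used position alone and no measured value. A further 16398 windows lay within 1 kb of a protein-coding start, 1002 of them also within 1 kb of a lncRNA start, and 33015 lay away from starts of both kinds.

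Long non-coding RNAs are transcribed by RNA polymerase II, usually capped and spliced, and translated into no known protein. Some act in the nucleus as scaffolds, some are the precursors from which microRNAs or small nucleolar RNAs are cut, and many have no known function. Their promoters carry the same open, nucleosome-poor stretch as those of protein-coding genes, but lie more often outside CpG islands, the CpG-dense stretches that mark the promoters of most broadly used genes.

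The windows came from Pi-ATAC, in which fixed and permeabilized cells are stained for proteins and sorted singly with the stain recorded. Before the sort, Tn5 transposase cuts and tags the accessible DNA of the cells in bulk. 4T1, a mouse breast cancer cell line, was mixed with splenocytes from the spleen of an MMTV-PyMT transgenic mouse that bore no tumour. The mixture was then stained for the epithelial surface protein EpCAM and the leukocyte surface protein CD45, by which the sort told the 2 groups apart. Titles gave 96 cells to each group, and the source names 95 to 4T1 and 97 to splenocytes. In this transgene a mammary tumour virus promoter drives an oncogene in mammary epithelium. The line stood for tumour cells and the spleen for immune cells. The peak names were read as calls on both groups pooled, so every value below belongs to 1 sample without replicates, and no difference between 4T1 cells and splenocytes could be computed. Fewer open cells and less open chromatin per cell cannot be told apart in such a pool, and its read depth was not analysed here. Among genes that define each group, 34 of 40 epithelial genes and 20 of 40 leukocyte genes had a window within 1 kb of a start, against 47.3% of all protein-coding genes, with 2 windows at Epcam and none at Ptprc, the gene of CD45, whose nearest summit was 16732 bp away. From aggregated EpCAM+ and CD45+ cells, the paper reports accessibility specific to the cell type at both loci. A missing window at the Ptprc start thus does not mean a closed locus. Intervals are 95% intervals and cover counting error only, and 147 of the 587 windows overlapped another of them, so the windows are not independent of each other.

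The sequences of 6 windows show the range of these promoters, from a snoRNA host to the host genes of cell-type-restricted microRNAs. Each is the central 200 bases of the window nearest to a transcript start of the gene. It is read on the strand of the lncRNA from the mm9 genome, with every CpG in capitals. Snhg5 had the highest CpG ratio of all 587 windows. The window shown for 5730588L14Rik, antisense in the neighbourhood of Snhg7, was among the 3 without a CpG. It lies at an inner transcript start, whereas the outermost start of that gene has a CpG ratio of 0.907.
Snhg5 (chr9:88417782-88417981, minus strand): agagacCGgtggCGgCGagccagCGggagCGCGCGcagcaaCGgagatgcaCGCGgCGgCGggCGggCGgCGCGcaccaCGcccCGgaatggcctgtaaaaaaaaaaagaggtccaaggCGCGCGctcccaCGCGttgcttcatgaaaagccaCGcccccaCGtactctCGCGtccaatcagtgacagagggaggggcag
Mir17hg (chr14:115441270-115441469, plus strand): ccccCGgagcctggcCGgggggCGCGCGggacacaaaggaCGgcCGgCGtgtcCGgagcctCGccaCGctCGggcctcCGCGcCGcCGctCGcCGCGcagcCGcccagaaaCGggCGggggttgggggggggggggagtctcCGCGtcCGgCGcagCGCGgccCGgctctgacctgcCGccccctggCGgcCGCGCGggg
A430104N18Rik (chr11:87568924-87569123, plus strand): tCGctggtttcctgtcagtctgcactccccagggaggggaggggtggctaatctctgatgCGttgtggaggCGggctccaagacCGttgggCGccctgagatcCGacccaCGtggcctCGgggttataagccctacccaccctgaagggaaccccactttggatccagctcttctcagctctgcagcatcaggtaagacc
Gm15884 (chr6:124668963-124669162, minus strand): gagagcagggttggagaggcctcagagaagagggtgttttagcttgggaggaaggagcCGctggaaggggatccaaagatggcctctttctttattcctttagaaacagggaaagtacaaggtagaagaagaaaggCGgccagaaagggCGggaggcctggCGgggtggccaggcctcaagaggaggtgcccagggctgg
F630028O10Rik (chrX:93435058-93435257, plus strand): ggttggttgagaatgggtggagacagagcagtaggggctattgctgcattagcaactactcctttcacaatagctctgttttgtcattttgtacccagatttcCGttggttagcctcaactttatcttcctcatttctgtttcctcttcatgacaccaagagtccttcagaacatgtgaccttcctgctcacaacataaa
5730588L14Rik (chr2:26499119-26499318, plus strand): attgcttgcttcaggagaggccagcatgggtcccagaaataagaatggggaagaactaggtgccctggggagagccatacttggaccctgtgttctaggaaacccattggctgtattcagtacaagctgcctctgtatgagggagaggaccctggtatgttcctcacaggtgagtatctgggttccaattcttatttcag
The number of CpGs in these 200 bases was 27 for Snhg5 and 34 for Mir17hg. It fell to 8 for A430104N18Rik, 4 for Gm15884, 1 for F630028O10Rik and 0 for 5730588L14Rik.

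The Mir17hg, A430104N18Rik, Gm15884 and F630028O10Rik genes hold microRNAs, and their mature sequences are from RefSeq (build GRCm38.p6), with the seed (bases 2 to 8, which pair with target messages) in capitals. F630028O10Rik holds Mir223, known from myeloid cells, and A430104N18Rik holds Mir142, known from blood cells. Gm15884 holds Mir200c and Mir141, known from epithelial cells. Mir17hg holds the growth-promoting cluster that begins with Mir17.
mmu-miR-223-3p: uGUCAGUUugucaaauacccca
mmu-miR-142a-3p: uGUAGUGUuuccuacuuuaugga
mmu-miR-200c-3p: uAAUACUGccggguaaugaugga
mmu-miR-141-3p: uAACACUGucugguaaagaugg
mmu-miR-17-5p: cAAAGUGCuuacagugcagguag

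The first question was how many annotated lncRNA promoters were open in the pooled list, and of which classes. Of 3845 lncRNA genes, 428 (11.1%, 95% interval 10.2 to 12.2%) had such a window, 600 more had windows only at starts shared with a protein-coding gene, and the rest had none within 1 kb. Among the 2854 lncRNA genes with a start away from protein-coding starts, 401 (14.1%, 12.8 to 15.4%) had a window, against 47.3% of the 22350 protein-coding genes, counted over all their starts. The rest of the 428 have all starts within 1 kb of a coding start and a summit beyond that distance. The annotation sorts the genes of the rule into 1273 of type lincRNA and 2572 of type processed_transcript, and no gene carries the other 3 types of the rule. Away from protein-coding starts, 197 of 727 lincRNA genes (27.1%, 24.0 to 30.4%) had a window against 204 of 2127 processed_transcript genes (9.59%, 8.41 to 10.9%). By transcript type, the share was 9.72% (8.06 to 11.7%) of 1029 genes with an antisense transcript and 14.8% (13.0 to 16.8%) of 1316 others with a lincRNA transcript. It was 20.8% (17.5 to 24.6%) of the 509 genes with neither.

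CpG content at the start went with the share of genes that had a window, in lncRNA and protein-coding genes alike. A start was called CpG-rich when the 500 bp around it had more than 50% GC and an observed to expected CpG ratio above 0.6. Of lncRNA genes with a CpG-rich outermost start, 122 of 308 (39.6%, 34.3 to 45.2%) had a window, against 279 of 2546 (11.0%, 9.80 to 12.2%) with another start. For protein-coding genes the shares were 75.8% (75.0 to 76.6%) of 10636 and 21.5% (20.8 to 22.3%) of 11714. At equal CpG class the lncRNA share was the lower, and its interval did not reach the protein-coding one, but the counting rules differ. A lncRNA gene counted only through a window away from every protein-coding start. A protein-coding gene counted through a window at any of its starts. The outermost start of a lncRNA gene, which set its CpG class, may also lie near a protein-coding start, where windows were left out. How much of the gap comes from these rules was not tested. CpG-rich starts made up 10.8% of the lncRNA genes and 47.6% of the protein-coding genes. The lncRNA genes with a window spanned a median of 8282 bp (6952 to 9598), and those without one 6348 bp (5980 to 6875). Both had a median of 3 exons.

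**Figure D1:**
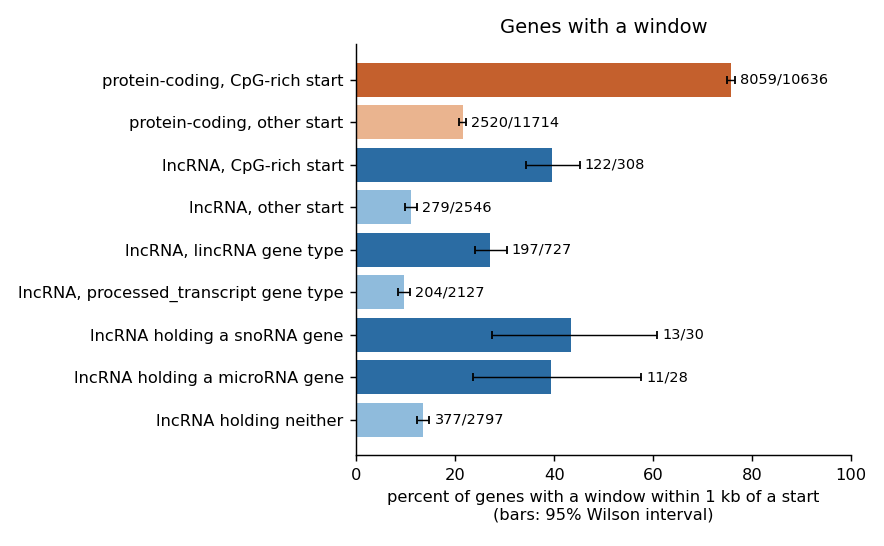
Percent of genes with a window within 1 kb of a start (x axis), by gene class, with 95% Wilson intervals and the counts beside each bar. Protein-coding genes are counted whole, lncRNA genes only where a start lies over 1 kb from protein-coding starts; the CpG-rich lncRNA starts reach 39.6% and the CpG-rich protein-coding starts 75.8%.

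Host genes of small RNAs had a window more often than other lncRNA genes. Small nucleolar RNAs (snoRNAs), which guide the chemical modification of ribosomal RNA, are cut from introns of host transcripts. Of 30 lncRNA genes that hold a snoRNA gene on their strand and have a start away from protein-coding starts, 13 had a window (43.3%, 27.4 to 60.8%). Of 28 that hold a named microRNA gene, 11 had one (39.3%, 23.6 to 57.6%). Of 2797 that hold neither, 377 had one (13.5%, 12.3 to 14.8%). This grouping was made after the values were seen, and the groups are small. It needs an annotated small RNA gene inside the gene model. The listed microRNA hosts Dleu2, D230004N17Rik (Mir100hg) and Gm16908 (Mir143hg) had windows but no such microRNA gene, and were not counted as holding one.

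The snoRNA hosts that had a window shared a CpG-rich promoter. In all 13 snoRNA hosts with a window, the window nearest to the start was CpG-rich, with CpG ratios from 0.637 to 1.16 (median 0.850), and its summit lay 6 to 161 bp from the start (median 67 bp). Snhg12, the host of Snora16a, Snora44, Snora61 and Snord99, had 3 windows, with summits 6, 218 and 163 bp from a start and CpG ratios of 0.799, 0.758 and 0.189. Snhg5 had 1 window with a ratio of 1.16 and its summit 161 bp upstream. Snhg7, the host of Snora17 and Snora43, had 1 window with a ratio of 0.908, 67 bp downstream. 2410006H16Rik, the host of Snord49a, Snord49b and Snord65, had 1 window with a ratio of 0.872, and 2810008D09Rik, which holds SCARNA16, had 1 with a ratio of 0.953. Snhg5 lies on chromosome 9 near 9430037G07Rik and 9330159M07Rik, which hold snoRNA genes of the same annotated name, SNORD50, and whose windows had ratios of 0.850 and 0.830. The 9430037G07Rik window also served Gm17683 on the other strand, and both genes are counted among the 13 through this same window. Reads that map to such copies may be split or lost, and this was not tested.

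The microRNA hosts were more varied. Of 13 with a window, the nearest window that met the rule was CpG-rich in 6. The 13 include hosts whose starts all lie within 1 kb of a coding start but whose summit does not. The CpG ratios ran from 0.0906 to 1.00, and the summits lay 8 to 906 bp from the start (median 341 bp). The 906 bp belong to 2210403K04Rik (Mir22). A nearer summit of that gene, 33 bp from a start, was left out because a protein-coding start lay within 1 kb of it. 1700016P03Rik, the host of Mir132 and Mir212, had a window with a ratio of 0.878 and its summit 110 bp from the start. A330023F24Rik, the host of Mir29b-2 and Mir29c, had 2 windows with ratios of 1.00 and 0.560 from a call of several summits. B230206F22Rik, the host of Mir374 and Mir421 on the X chromosome, had 2 windows with ratios of 0.897 and 0.823. The CpG-poor end of the group held D030055H07Rik (Mir135a-1), with a ratio of 0.254, Mirg, with 0.314, and the hosts of Mir223, Mir142 and Mir200c. F630028O10Rik (Mir223) had 1 window with 42.4% GC and a CpG ratio of 0.0906, its summit 123 bp upstream of the start and no other window within a little over 12 kb, the distance over which windows were joined into clusters. A430104N18Rik (Mir142) had 1 window with a ratio of 0.248, 55 bp upstream. Gm15884 (Mir200c and Mir141) had 2 windows with ratios of 0.308 and 0.115, 214 and 731 bp from the start, in a cluster of 8 windows. C130071C03Rik (Mir9-2) had 3 windows with ratios from 0.468 to 0.593. The microRNA hosts without a window included H19, Meg3, Rian, Dnm3os, the host of Mir199a-2 and Mir214, and 4631405K08Rik, the host of Mir205.

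Of 111 names in 8 lists of known lncRNAs, 34 are lncRNA genes in this annotation under the same symbol, and 12 of those had a window at a start of their own. Older symbols were then looked up among the RefSeq synonyms, a step added after the data were seen, which gave 68 lncRNA genes. Of these 68, 25 (36.8%, 26.3 to 48.6%) had a window of their own, 9 had windows only where a protein-coding start lay within 1 kb, and 34 had none. Over all lncRNA genes 11.1% had such a window. The lists hold well-studied genes and are small, so their counts are a description.

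Of 5 nuclear lncRNAs, 3 had a window. Malat1, the abundant transcript of nuclear speckles, had 1 window with its summit 11 bp from the start, 41.6% GC and a CpG ratio of 0.665. Neat1, the scaffold of paraspeckles, had 1 window 682 bp downstream of a start, with a ratio of 0.518. Firre, annotated as 6720401G13Rik on the X chromosome, had 2 overlapping windows from a call of several summits, with ratios of 0.438 and 0.410. The Malat1 window stood in a cluster of 17 windows and the Neat1 window in a cluster of 10. Tug1 had its only window at a start shared with a protein-coding gene, and Miat had none.

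Of 14 listed snoRNA hosts, 8 had windows of their own. They were Snhg5, Snhg7, Snhg12, 2810008D09Rik (Snhg20), Gm11974 (Snhg15), 9430008C03Rik (Snhg17), 2700023E23Rik (Dancr) and 2410004N09Rik (Epb4.1l4aos). Gas5, Snhg1 and Snhg9 had windows that a protein-coding start shared, and Snhg3, Snhg4 and Snhg18 had none. Of 10 listed microRNA hosts, 5 had windows, namely Mir17hg, Dleu2, 2210403K04Rik (Mir22hg), D230004N17Rik (Mir100hg) and Gm16908 (Mir143hg). The Mir17hg window lay 731 bp upstream of its start, with 77.4% GC and a CpG ratio of 0.951. Dleu2, the host transcript of the miR-15a and miR-16-1 locus, had 4 windows, of which those at -225 and -139 bp from a start had ratios of 0.898 and 0.809, the window at 517 bp had 0.739 and the window at -966 bp had 0.590, where negative is upstream. D230004N17Rik had 3 windows from 1 call, with ratios of 0.303, 0.244 and 0.302. Mir155 had none within 1 kb, its nearest summit lying 3099 bp downstream, and neither had Dnm3os, Mir205hg, Mir124a-1hg and Mir9-3hg.

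Of 6 imprinted lncRNAs, which are expressed from a single parental copy, Mirg had a window, 592 bp downstream of a start and with a ratio of 0.314. The nearest summit lay 1504 bp from Nespas, 1782 bp from Meg3, 9019 bp from Airn, 36977 bp from Rian and 78833 bp from H19. Of 4 lncRNAs of the X inactivation centre, 2 had windows. Enox, now named Jpx, had 2, of which the window at -74 bp from its start had a ratio of 0.772 and the window at -842 bp had 0.261. B230206F22Rik, now named Ftx, had the 2 windows given above as a microRNA host. Xist, the RNA that coats the inactive X, was 9497 bp from the nearest summit and Tsix 61197 bp.

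Of 18 developmental lncRNAs, 1 had a window (5.56%, 0.988 to 25.8%), an interval that holds the 11.1% of all lncRNA genes. It was 2700086A05Rik (Hoxaas3), in the Hoxa cluster, with its summit 496 bp downstream of a start and a ratio of 0.0789. Hotairm1, Hoxaas2 and Foxd2os had windows shared with a protein-coding start, and the other 14, among them Hotair, Hottip, Fendrr, Sox2ot and Rmst, had none. Of 7 growth and stress lncRNAs, 3 had windows. Pvt1, the neighbour of Myc, had 2, which lay 64 and 968 bp downstream of a start and had ratios of 0.740 and 0.0818. 1700020I14Rik, known as Cyrano, had 1 window with a ratio of 0.862, 70 bp downstream, and 2810008D09Rik had the window given above. Of 9 immune and blood lncRNAs, 4 had windows. Gm14005, known as Morrbid, a regulator of the lifespan of short-lived myeloid cells, had 4 and Dleu2 those given above. 5830416P10Rik and 4833407H14Rik, both matched to the name Mirt1, had 2 each, with ratios from 0.161 to 0.521. The windows of Gm16685 and Ptgs2os were shared with a protein-coding start.

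Consensus words bound by transcription factor families are in capitals in the central 300 bases of 3 of these windows, shown because each holds words of a different kind. The Pvt1 window holds the CRE word (TGACGTCA), bound by CREB and ATF factors, and a TEAD word (GGAATG). The 1700020I14Rik window holds NFY (AGCCAAT), KLF/SP (GGGGCGG) and YY1 (AAGATGGCG) words. The Gm14005 window holds ETS (CCGGAAG), SPI1 (GAGGAAGT) and AP-1 (TGANTCA) words. Each word was searched on both strands.
Pvt1 (chr15:61869530-61869829, plus strand): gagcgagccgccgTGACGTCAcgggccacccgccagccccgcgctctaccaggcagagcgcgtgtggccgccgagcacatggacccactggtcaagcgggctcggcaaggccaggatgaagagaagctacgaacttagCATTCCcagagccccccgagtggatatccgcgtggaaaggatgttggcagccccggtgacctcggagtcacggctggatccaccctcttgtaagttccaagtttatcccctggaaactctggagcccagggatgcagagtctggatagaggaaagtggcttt
1700020I14Rik (chr2:119419959-119420258, plus strand): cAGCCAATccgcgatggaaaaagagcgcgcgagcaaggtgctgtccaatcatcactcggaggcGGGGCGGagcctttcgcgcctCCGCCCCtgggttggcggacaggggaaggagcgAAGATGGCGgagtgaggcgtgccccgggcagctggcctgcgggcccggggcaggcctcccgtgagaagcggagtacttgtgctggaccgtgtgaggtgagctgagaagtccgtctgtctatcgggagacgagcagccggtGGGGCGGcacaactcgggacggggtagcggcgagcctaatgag
Gm14005 (chr2:128255032-128255331, minus strand): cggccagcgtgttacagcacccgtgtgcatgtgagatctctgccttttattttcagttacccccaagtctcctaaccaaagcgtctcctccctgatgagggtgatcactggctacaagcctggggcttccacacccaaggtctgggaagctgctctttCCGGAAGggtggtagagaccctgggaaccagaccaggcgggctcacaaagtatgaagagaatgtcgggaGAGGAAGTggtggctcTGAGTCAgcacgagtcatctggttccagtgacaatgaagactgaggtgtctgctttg

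Most lncRNA genes had a single window. Of the 428, 296 had 1, 97 had 2, 22 had 3, 12 had 4 and 1 had more. That gene was 2310001H17Rik, in the natural killer gene complex near Cd69, with 8 windows around 3 transcript starts in a cluster of 13 windows. Their CpG ratios ran from 0.0410, at 893 bp downstream of a start, to 1.01, at -556 bp from another, and the values between were 0.139, 0.243, 0.370, 0.384, 0.592 and 0.723. The windows with ratios of 0.592 and above all stood on the 5′ side of a start.

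The next in number were the 12 genes with 4 windows each. 2410080I02Rik, near Klf9, had ratios of 0.382, 0.696, 0.661 and 0.703 over its 4 windows, all from calls of several summits. C920006O11Rik, near Gsta4, had 0.776, 1.06, 0.874 and 0.926, of which only the 1.06 window was CpG-rich, the others having 44.6 to 49.8% GC. D230017M19Rik had 2 pairs of windows at separate starts, of ratios 0.788 and 0.882 and of 0.956 and 0.521, each pair a summit within 32 bp of its start and another 536 or 609 bp downstream. Gm16899 had 0.430, 0.601, 0.739 and 0.663, and the nearest protein-coding start, of Pcmtd1, was at least 230707 bp away. Gm10425, near Tnfaip2, had 0.377, 0.273, 0.408 and 0.214, 3 of them holding the AP-1 word. Gm14005 had 0.378, 0.287, 0.283 and 0.316. No window of Gm10425 or Gm14005 was CpG-rich, whereas 3 of 4 were at Dleu2. Gfi1, the gene of a transcriptional repressor of blood cells, is typed as processed_transcript here. Its 4 windows had ratios of 0.713, 0.414, 0.569 and 0.654, and windows of A430072P03Rik, which starts in the opposite direction beside it, are partly the same.

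Summits sat close to the annotated start, with a wide scatter. The median distance was -33 bp (95% interval -65 to 1 bp), where negative is upstream, with quartiles of -286 and 289 bp. Of the 587 summits, 140 (23.9%) lay within 100 bp of the start, 267 (45.5%, 41.5 to 49.5%) within 250 bp and 402 (68.5%) within 500 bp. At protein-coding starts 62.4% (61.7 to 63.2%) lay within 250 bp. On either side of the start the numbers were 314 upstream and 271 downstream. CpG-rich windows were the closer, with a median absolute distance of 148 bp (110 to 194) against 351 bp (301 to 395) for the other 442. Among protein-coding promoter windows those medians were 107 bp (103 to 110) and 378 bp (364 to 394). The CpG-poor windows thus lay at like distances in both kinds of promoter, whereas the CpG-rich lncRNA windows lay farther than the protein-coding ones.

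**Figure D2:**
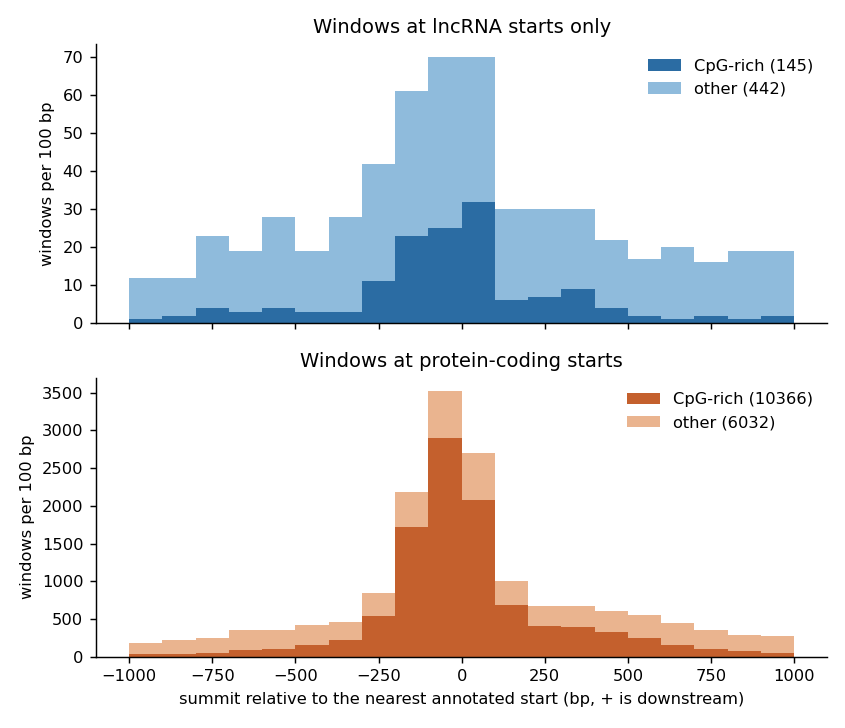
Number of windows per 100 bp (y axis) by position of the summit relative to the nearest annotated start (x axis, bp, positive downstream), for the 587 windows at lncRNA starts only and the 16398 at protein-coding starts, split into CpG-rich and other windows. Both peak at the start; 45.5% of the lncRNA summits and 62.4% of the protein-coding ones lie within 250 bp.

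The windows stood between protein-coding promoters and windows away from starts in base composition. The median GC content was 53.0% (52.4 to 53.6), against 59.8% at protein-coding starts and 48.8% away from starts. The median CpG ratio was 0.408 (0.376 to 0.446), against 0.711 (0.707 to 0.715) and 0.214 (0.212 to 0.216). CpG-rich windows, by the limits given above, numbered 145 of 587 (24.7%, 21.4 to 28.4%), against 63.2% and 3.13%. The 5 highest ratios were 1.16 at Snhg5, 1.11 at Gm13421, 1.06 at C920006O11Rik, 1.04 at Ascl4 and 1.04 at 9930014A18Rik. The 5 lowest were 0 at 5730588L14Rik, Gm11840 and Gm13816, 0.0252 at Gm13431 and 0.0281 at 9130409J20Rik. By transcript type 4 of these 5 genes are lincRNAs, as were 48.0% of the 587 windows, and 5 genes are too few for a comparison. By transcript type the CpG-rich share was 27.7% (22.8 to 33.2%) of the 282 lincRNA windows, 29.1% (22.3 to 36.8%) of the 148 processed_transcript windows and 11.7% (7.23 to 18.4%) of the 128 antisense windows. The antisense interval did not overlap either of the others.

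**Figure D3:**
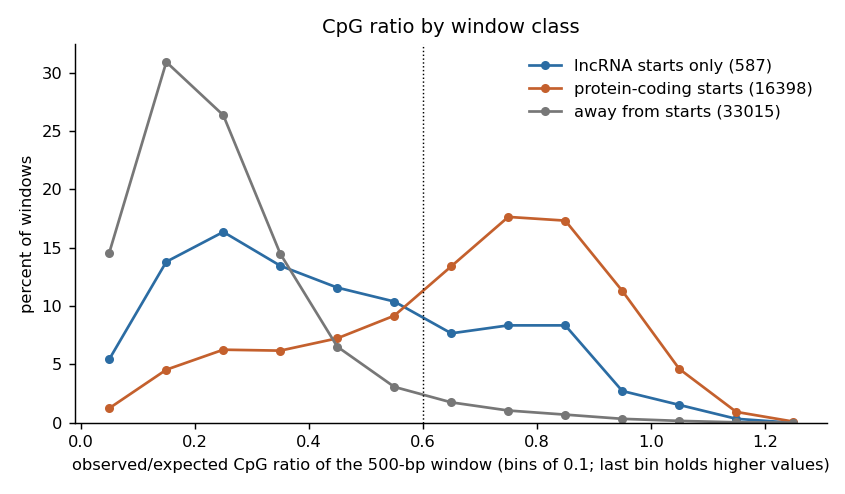
Percent of windows (y axis) in bins of 0.1 of the observed to expected CpG ratio (x axis) for the 587 windows at lncRNA starts only, the 16398 at protein-coding starts and the 33015 away from starts; the dotted line is the limit of 0.6. The lncRNA windows have a median of 0.408 and spread over both the low and the high part of the scale.

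Peak calls with several summits gave 168 of the 587 windows (28.6%, 25.1 to 32.4%). The share was 34.0% at protein-coding starts and 10.2% away from starts. CpG-rich windows came from such calls in 42.1% (34.3 to 50.2%) of cases and the others in 24.2% (20.5 to 28.4%). At protein-coding starts these shares were 36.1% and 30.3%, a smaller gap. The share was 35.8% (30.4 to 41.6%) for lincRNA transcripts and 13.3% (8.46 to 20.2%) for antisense transcripts, whose intervals did not overlap. A call of several summits adds several windows at the same start: with the window nearest to the start alone counted for each of the 420 nearest genes, 19.3% (15.8 to 23.3%) came from such calls, an alternative chosen after seeing the data.

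The KLF/SP and ETS words were more common in the CpG-rich windows and the AP-1 word in the others. The KLF/SP and ETS words contain a CpG and the AP-1 word does not, so the split by CpG content itself favours this contrast, and each share is set beside that of protein-coding windows of the same class. The KLF/SP word, bound by GC-box factors, was in 69 of 145 CpG-rich windows (47.6%, 39.6 to 55.7%) and 56 of the other 442 (12.7%, 9.89 to 16.1%). In protein-coding promoter windows of the same classes the shares were 57.2% and 20.4%, both above the lncRNA intervals. The ETS word, bound by factors such as GABPA, was in 15.2% (10.2 to 21.9%) and 7.01% (4.98 to 9.78%), against 24.1% and 8.17%. The AP-1 word, bound by FOS and JUN, was in 8.28% (4.80 to 13.9%) and 26.9% (23.0 to 31.2%), against 6.55% and 19.7%. Over all windows it was in 22.3% (19.1 to 25.9%) of the lncRNA windows, 11.4% at protein-coding starts and 31.6% away from starts.

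In the CpG-rich windows, the E-box, TATA and octamer words stood more often at lncRNA starts than at protein-coding ones, with intervals that did not reach the protein-coding share. The E-box word (CACGTG), bound by MYC, MAX and USF factors, was in 31 of 145 (21.4%, 15.5 to 28.7%) against 14.5% (13.8 to 15.2%). The TATA word (TATAAA) was in 26 of 145 (17.9%, 12.54 to 24.98%) against 6.87% (6.40 to 7.37%). The octamer (ATGCAAAT), bound by POU2F factors, was in 7 of 145 (4.83%, 2.36 to 9.63%) against 1.37%. In CpG-rich windows away from starts, the E-box was in 15.2% (13.1 to 17.5%) and the octamer in 3.00% (2.12 to 4.23%). Both intervals overlapped those of the CpG-rich lncRNA windows. The TATA word was in 8.33% (6.79 to 10.2%) there, below the lncRNA interval. The interval of the YY1 word held the protein-coding share: it was in 3 of 145 (2.07%, 0.706 to 5.91%) against 4.93%, and in none of the other 442 windows, with a Wilson upper limit of 0.862%. With 1 window per gene the E-box was in 22.4% (15.6 to 31.2%) and the TATA word in 18.7% (12.4 to 27.1%) of 107 CpG-rich windows. At the place of a working TATA box, 40 to 20 bp before the start on the strand of the transcript, the TATA word stood at 8 of 460 starts of these lncRNAs (1.74%, 0.884 to 3.39%), at 0.761% (0.626 to 0.924%) of 13147 protein-coding starts and at 1.28% (0.947 to 1.74%) of 3198 starts of lncRNA genes without a window.

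Among words for lymphoid and myeloid factors, SPI1 was more common than at protein-coding starts and RUNX less common than away from starts. The SPI1 word, bound by the myeloid and B cell factor PU.1, was in 42 of 587 windows (7.16%, 5.34 to 9.53%), against 3.95% (3.66 to 4.26%) at protein-coding starts and 4.92% (4.69 to 5.16%) away from them. By transcript type it was in 10.3% (7.26 to 14.4%) of lincRNA, 3.13% (1.22 to 7.76%) of antisense and 4.73% (2.31 to 9.44%) of processed_transcript windows. In CpG-rich windows it was in 4.83% (2.36 to 9.63%), against 3.45% at protein-coding starts. In the other windows it was in 7.92% (5.75 to 10.8%), against 4.81%. The RUNX word (TGTGGTT) was in 45 (7.67%, 5.78 to 10.1%), against 6.59% at protein-coding starts and 13.7% away from starts. The TEAD word was in 151 (25.7%), against 19.6% and 29.1%. The IRF word (GAAANTGAA) was in 3.92% (2.62 to 5.81%), against 2.64% and 3.73%. The CTCF core was in 2.38% (1.43 to 3.96%) and the NRF1 word (GCGCATGCG) in 1.53% (0.809 to 2.89%). The NFY word was in 7.84%, against 10.1% and 6.26%, and the CRE word in 2.73%, against 2.95% and 0.645%. The GRHL word (AACCNGTT), bound by epithelial factors, was in 14 windows (2.39%, 1.43 to 3.96%), against 2.95% and 3.71%, among them both windows of Wbscr25. The CEBP word (TTGCNNAA) was in 15.8%, the octamer in 2.56%, the NF-kB word (GGGANTTCC) in 2.22%, the STAT word (TTCCNGGAA) in 1.70% and the full NFI site in 2 windows. The SPI1 and ETS words both contain GGAAG but cannot match the same bases in full. A match is a match of letters, not a bound site. Each of the 20 words was compared over the same windows, and no correction for their number was made.

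**Figure D4:**
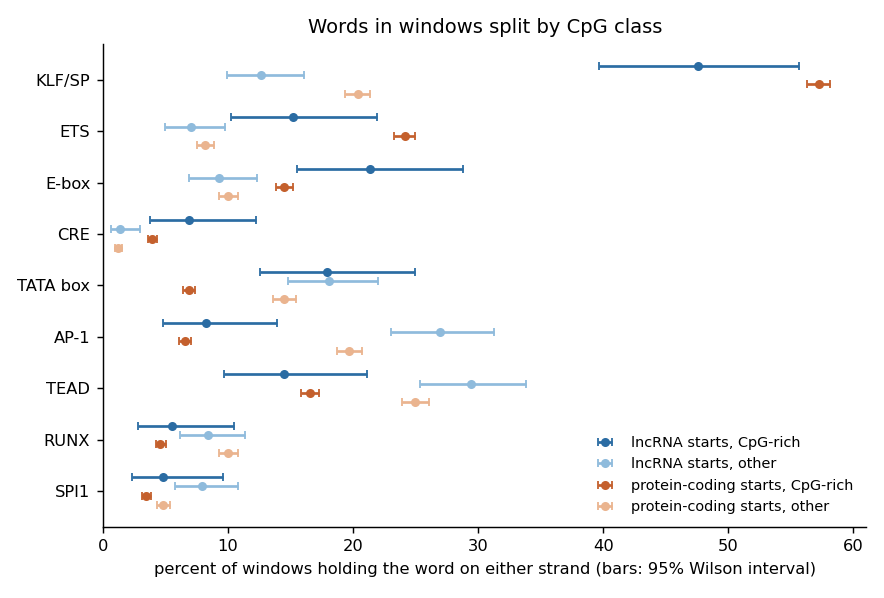
Percent of windows that hold each word on either strand (x axis) with 95% Wilson intervals, for 9 words and 4 classes of window: lncRNA and protein-coding starts, CpG-rich and other. The KLF/SP word reaches 47.6% in the CpG-rich lncRNA windows and 57.2% in the CpG-rich protein-coding ones, and the AP-1 word 26.9% in the other lncRNA windows.

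The windows lay at a median of 16294 bp (14777 to 19387) from the nearest protein-coding start, from 1007 bp to 1325880 bp, the last at Gm13470, whose nearest coding gene is Zeb2. The distance was 1 to 2 kb for 83 windows (14.1%) and over 100 kb for 57 (9.71%). The median was 27974 bp (18779 to 35684) for lincRNA transcripts and 8544 bp (5339 to 13795) for antisense transcripts. A protein-coding gene model held 171 windows (29.1%, 25.6 to 32.9%), against 49.0% of windows away from starts, 140 of them only on the strand opposite to the lncRNA. An exon held 30 of the 171. Of 128 antisense windows, 70 (54.7%, 46.1 to 63.1%) lay in a protein-coding gene. Close to the limits of the rule, Gm16262 had a summit 999 bp from its start and a window of Gm11932 missed at 1009 bp. At the coding limit, 4930581F22Rik had its summit 1007 bp from St3gal4, and the window of Gm4485 missed with 991 bp to Foxj2.

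**Figure D5:**
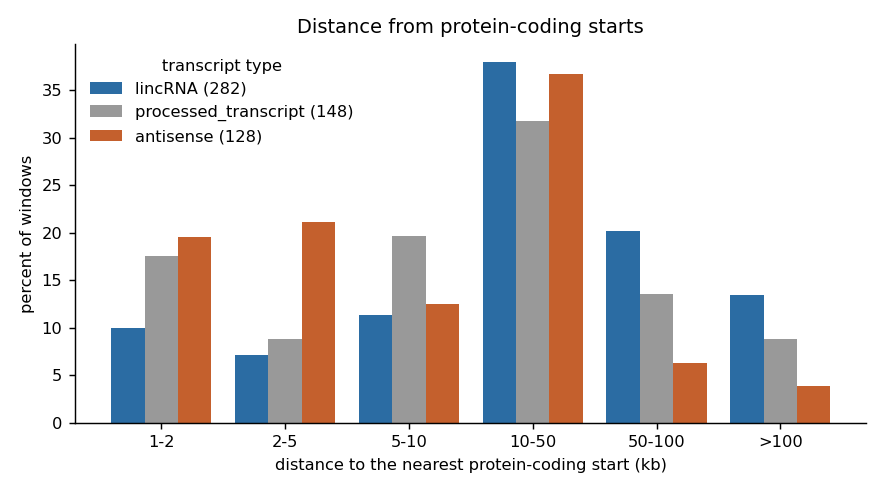
Percent of windows (y axis) by distance to the nearest protein-coding start (x axis, kb) for lncRNA transcripts of type lincRNA, processed_transcript and antisense. The median is 27974 bp for lincRNA and 8544 bp for antisense transcripts.

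The windows near genes of the sorted cells were few. Of 40 epithelial genes, 2 held such a window or had a start within 50 kb of one (5.00%, 1.38 to 16.5%), as had 2 of 40 leukocyte genes (5.00%, 1.38 to 16.5%) and 3.48% (3.24 to 3.73%) of all protein-coding genes. Near Cldn3, the gene of a tight junction protein, Wbscr25 had 2 windows and 2010001M06Rik 1, 15081 to 26860 bp from its start. Grhl2, an epithelial transcription factor, held the window of Gm16137, 9537 bp from its start and with a CpG ratio of 0.538. Bach2, a B cell factor, held the window of Gm11932, 3360 bp from its start and from a call of several summits, and Ikzf1, the gene of Ikaros, held that of Gm12000 on the opposite strand, 4267 bp from its start and with a ratio of 0.137.

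Some of these promoters belong to protein-coding genes in a later annotation. The 60 bases around each RefSeq start (build GRCm38.p6) were searched letter for letter in the mm9 sequence around each window. RefSeq gave a protein-coding start within 1 kb of the summit for 35 of 587 windows (5.96%, 4.32 to 8.18%), at 22 coding genes, and a lncRNA start for 249. In 23 of the 35 the lncRNA gene is itself the coding gene in RefSeq. The same search found a coding start at 72.0% of every 20th protein-coding promoter window and at 0.908% of every 50th window away from starts, so such starts can be missed by it. Those genes include Gfi1, with 4 windows, Crybg3 (Gm9581), with 3, and Oaz2, Pdf and Spata5l1, with 1 each. They also include genes of small proteins, Smim1 (1190007F08Rik), Smim27 (2010003O02Rik) and Nbdy (2210013O21Rik), with 1 each, and Inafm2 (5430417L22Rik), with 2. Of the 35, 48.6% (33.0 to 64.4%) were CpG-rich, against 23.2% (19.9 to 26.9%) of the remaining 552. Looked up by symbol or synonym instead, 21 of the 420 nearest lncRNA genes (5.00%, 3.29 to 7.52%) were protein-coding in RefSeq. A further 222 (52.9%) were lncRNAs, 12 were transcribed pseudogenes and 161 were not matched.

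Along the chromosomes, 88 windows lay on chromosome 2, 58 on chromosome 11, 57 on chromosome 4 and 28 on the X chromosome. Chromosomes 5, 6, 7 and 17, with 40, 33, 31 and 29, held more than the X. Together chromosomes 2, 4, 11 and X held 39.4% of the 587 windows but 21.4% of all 50000. This grouping was not planned. It takes the chromosomes whose share of the 587 most exceeded their share of all windows, so it favours that excess. The same chromosomes held 1348 of the 2854 lncRNA genes with a start away from protein-coding starts, of which 12.2% (10.5 to 14.0%) had a window, against 15.7% (14.0 to 17.7%) on the other chromosomes. Clusters of 3 or more windows held 381 of the 587 (64.9%, 61.0 to 68.7%), against 60.4% of protein-coding promoter windows and 48.0% of windows away from starts. The share was 86.3% for windows from calls of several summits, which count towards their own cluster, and 56.3% for the rest. The largest cluster with such a window held 32 windows, at Gm13834, and the next held 28 windows, 3 of them at Gm16170 near Trim7. No other window lay within that joining distance of 94 of the 587 (16.0%).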

How the data were processed

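Reads were mapped by the authors to mm9 with Bowtie2 2.1.0, duplicates were removed with Picard 1.79 and summits were called with MACS2 (version not given in the sources used here). The deposited values are start and end positions of 500 bp windows on 19 autosomes and the X chromosome, with no score, count or p-value. Starts and mm9 sequence came with GENCODE vM1. RefSeq (GRCm38.p6) gave sequences and gene types but no positions. Python 3.11.15, numpy 2.4.6, pandas 2.3.3, scipy 1.17.1, pysam 0.24.0 and matplotlib 3.10.9 were used, and the code was tested on simulated data. The members and lists were chosen with earlier results of these data known, and no test was run. Shares have Wilson intervals and medians order-statistic intervals. Named genes were those of the lncRNA lists, the 10 with the most windows, the 5 highest and 5 lowest CpG ratios, neighbours of the epithelial and leukocyte genes, and windows next to the 1 kb limits. Small RNA hosts, RefSeq coding genes and other named genes were chosen after their values were seen. List names were matched by symbol and then through RefSeq synonyms of lncRNA genes. Alternatives changed the distances, gene types, starts and kinds of call.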

Additional observations from a re-analysis of the deposited data

How the results depend on the processing

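No paired analysis was possible because the deposited list, read here as a pool of all cells, has no column per sample and the results come from no test, so samples with the same replicate number could not be set side by side, nor could a replicate be left out. Of 218 values under alternatives, 65 moved beyond their interval or by over 1.5 times as a count. Only the median summit position could change sign. Its main interval (-65 to 1 bp) held 0, so no direction was called for it. With the lncRNA start within 500 bp, 11.5% of genes had a window, 66.4% of summits lay within 250 bp, the median CpG ratio was 0.461, 30.6% of windows were CpG-rich, 25.4% lay in a protein-coding gene and 60.4% in clusters. With 2 kb there were 900 windows, and these values were 17.8%, 29.7%, 0.353, 19.9% and 35.6%, with 24.6% from calls of several summits and a median of 11814 bp to a protein-coding start. At over 2 kb from protein-coding starts, 23.8% lay in a gene and the median distance was 23685 bp, and at over 5 kb 20.9%, 31292 bp and 59.3% in clusters. With lincRNA genes only there were 318 windows, 27.1% of genes with one, 37.4% from calls of several summits, a CpG ratio of 0.511, 33.6% CpG-rich, 25.5% in a gene and 70.1% in clusters. With the outermost start of each gene only, the ratio was 0.471, 32.5% were CpG-rich and 44.1% lay in a gene. With overlapping windows merged, 21.1% came from calls of several summits, and with 1 window per gene, chosen after seeing the data, 19.3%. Windows from calls of a single summit gave 46.5% at lincRNA genes, 11.7% of genes, a ratio of 0.355, 20.0% CpG-rich, 33.7% in a gene and 50.4% in clusters. The 168 windows from calls of several summits gave 69.6%, 2.77%, 0.527, 36.3%, 17.9% and 56.0%, and a median summit position of 20 bp. For these 2 kinds of call, clusters were joined from windows of the same kind only. With all deposited windows joined, the cluster shares were 56.3% for single-summit and 86.3% for several-summit windows, as given above. In the central 200 bp the words fell to 11.6% for AP-1, 4.43% for ETS, 2.56% for SPI1, 12.3% for KLF/SP, 5.79% for the E-box and 5.11% for TATA, where fewer bases were searched. A joining distance of 5 kb put 48.4% in clusters, and 100 kb in place of 50 kb gave 5 of 40 epithelial and 3 of 40 leukocyte genes with a neighbouring window, against 6.14% of all protein-coding genes. Matching list names through RefSeq synonyms raised the listed genes with a window from 12 to 25. Where no cause is given, the cause was not tested. The list holds positions without heights or depth, so a missing window does not show closed chromatin, and windows of rarer cells cannot be told from weaker ones.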

Other observations

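Of the genes with 4 windows that share the tenth place by number, Gm17395 lay beside Klrb1b, a receptor gene of natural killer cells, and Has2as is antisense to Has2, which makes hyaluronan. Of the 587 windows, 26 lay within 1 kb of a microRNA, snoRNA or small nuclear RNA gene. Chromosomes 1 and 10 to 13 held 142 of the windows (24.2%) and 22.3% of all 50000, although the peak numbers there show that 29.6% of calls were kept in the deposited list, against 41.3% on the other chromosomes.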
